A study of Mus musculus with 6 samples.

Results

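The enzymes of the methionine cycle and of transsulfuration were followed in hearts of mice that lost Mrps5, which encodes a small-subunit protein of mitochondrial ribosomes, in their cardiomyocytes. They were taken as the rows of the expression table whose gene name was Mat2a, Mat2b, Ahcy, Mtr, Mtrr, Cbs or Cth, which gave 7 of the 54532 genes listed. The table gives FPKM (fragments per kilobase of gene length, adjusted for library size) from poly-A RNA sequencing of 6 hearts, labelled heart tissue and described in the methods as ventricular. The 3 control hearts (Ctrl) came from Mrps5 fl/fl mice, in which both alleles were floxed but no Cre was present. The 3 knockout hearts (cKO) came from Mrps5 fl/fl; MCM mice, which added the αMHC-MerCreMer transgene, a Cre active only after tamoxifen and driven by a cardiomyocyte promoter. All 6 mice received tamoxifen at 45 mg per kg per day for 5 days from 8 weeks of age, and the labels place the harvest 12 weeks after it. No group carried the transgene without floxed alleles, so the transgene and the loss of Mrps5 cannot be told apart. The tissue was sampled whole, so cells that the αMHC promoter does not reach, such as fibroblasts and endothelial cells, were in every library.

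The methionine cycle turns methionine into S-adenosylmethionine, the methyl donor of most methyltransferases. Methyl transfer leaves S-adenosylhomocysteine, which is split into adenosine and homocysteine. Homocysteine is either remethylated to methionine with a methyl group from folate, or passed through transsulfuration to cystathionine and cysteine, the sulfur source of glutathione. MAT2A is the catalytic subunit of the S-adenosylmethionine synthetase found outside the liver and MAT2B its regulatory subunit. AHCY splits S-adenosylhomocysteine. MTR, methionine synthase, carries out the cobalamin-dependent remethylation, and MTRR restores its cobalamin cofactor after oxidation. CBS makes cystathionine from homocysteine and serine, and CTH cleaves it to cysteine.

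All 7 genes lie on the minus strand, at chr6:72432799-72439558 (Mat2a, 8 exons in its longest protein-coding transcript), chr11:40679314-40695203 (Mat2b, 7 exons), chr2:155059310-155074497 (Ahcy, 10 exons), chr13:12182712-12258113 (Mtr, 33 exons), chr13:68560780-68582149 (Mtrr, 15 exons), chr17:31612623-31637199 (Cbs, 17 exons) and chr3:157894248-157925077 (Cth, 12 exons). These are the table's own coordinates, identical to those of GENCODE M21 (GRCm38) for all but Cbs, and exons are counted in that annotation. RefSeq start sites with sequence were at hand for 6 of the 7, Cth being the other. The 250 bases before the start of Mat2a, Mat2b and Ahcy are shown because these mRNAs, of the enzymes before and after methyl transfer, took different courses in the cKO hearts. Each is read 5′ to 3′ on the strand of the gene (RefSeq, GRCm38.p6, minus strand), at chr6:72439557-72439806, chr11:40692683-40692932 and chr2:155074498-155074747. The Mat2b start used by RefSeq lies inside the gene span of the table. Capitals mark TATAAA, the TATA box letters, and CCAAT, the CCAAT box letters, on either strand.
Mat2a: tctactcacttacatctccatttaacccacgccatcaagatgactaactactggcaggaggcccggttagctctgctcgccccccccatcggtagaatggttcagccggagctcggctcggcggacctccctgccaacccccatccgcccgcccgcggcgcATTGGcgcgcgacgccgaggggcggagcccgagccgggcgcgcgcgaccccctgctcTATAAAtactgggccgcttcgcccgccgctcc
Mat2b: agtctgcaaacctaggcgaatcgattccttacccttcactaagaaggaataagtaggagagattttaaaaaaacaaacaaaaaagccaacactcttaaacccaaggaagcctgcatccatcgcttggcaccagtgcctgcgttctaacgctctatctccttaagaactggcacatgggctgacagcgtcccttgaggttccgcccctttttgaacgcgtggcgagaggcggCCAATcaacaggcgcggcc
Ahcy: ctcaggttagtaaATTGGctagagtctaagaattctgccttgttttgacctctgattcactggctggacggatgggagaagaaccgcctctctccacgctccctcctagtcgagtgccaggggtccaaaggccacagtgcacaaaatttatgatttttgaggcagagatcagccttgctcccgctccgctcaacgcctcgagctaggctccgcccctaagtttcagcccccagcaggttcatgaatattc
The Mat2a window held TATAAA at -32 to -27 relative to its start, which 12.4% of all 32851 mouse windows held somewhere, and was 67.6% G or C. Neither Mat2b (50.4% G or C) nor Ahcy (52.8%) held it. The CCAAT letters lay at -19 to -15 relative to the start of Mat2b, at -89 to -85 in Mat2a and at -237 to -233 in Ahcy, and were in 33.9% of all windows. Those 2 motifs were chosen after the sequences were read. Of 3 stress-related motifs, TGATGNAA (the core of the C/EBP-ATF response element, in 3.45% of all windows), CACGTG (E-box, 6.02%) and TGACNNNGC (antioxidant response element core, 10.2%), no match was found in the windows of Mat2a, Mat2b, Ahcy, Mtr or Mtrr, and Cbs held CACGTG alone.

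The libraries held between 15989322 (cKO replicate 1) and 24875499 (Ctrl replicate 3) reads assigned to genes. Mrps5 itself stood at 5.20, 6.45 and 6.33 FPKM in the Ctrl hearts, against 1.12, 1.23 and 1.31 FPKM in the cKO hearts, 20.4% of the Ctrl mean. Cardiomyocyte markers were present in every heart, and liver markers were near 0, with a summed level of at most 0.677 FPKM over 6 genes and Apob at 0 throughout. Some hearts stood apart. The atrial gene Myl7 was at 679 FPKM in Ctrl replicate 1 and 495 in cKO replicate 3 against 18.1 to 170 in the other 4 hearts. In cKO replicate 2, 4 Y-linked genes were at 0 and Xist was at 10.7 FPKM, while the other 5 hearts had a mean of at least 7.61 FPKM over those genes and at most 0.127 FPKM of Xist.

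Of the 7 enzymes, 6 passed the filter of a mean of 0.5 FPKM over the hearts, and Cbs did not. In the cKO hearts Ahcy rose, Mat2b fell, and Mat2a, Mtr, Mtrr and Cth did not pass the test (limma on log2(FPKM + 1), Benjamini-Hochberg adjustment over 12944 genes, threshold 0.05). Of all genes tested, 33.3% were called, 16.3% as higher and 17.0% as lower, so 2 calls in 6 is close to the background. Groups without overlap were seen for the same 2 enzymes, against 51.2% of all genes tested. The median log2 fold change of the 6 was 0.06, beside -0.02 over all genes tested.

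In FPKM, which is per length and so can be set side by side between genes, Mat2a stood highest in both groups. In Ctrl hearts the order of mean levels was Mat2a (34.9), Mat2b (20.3), Mtr (17.6), Ahcy (10.2), Mtrr (4.03), Cth (0.777) and Cbs (0.153), and of neighbours in that order only the ranges of Mat2b and Mtr overlapped. In cKO hearts it was Mat2a (35.3), Mtr (17.4), Ahcy (15.9), Mat2b (13.4), Mtrr (4.44), Cth (2.52) and Cbs (0.0943). There the ranges of Mtr and Ahcy, of Ahcy and Mat2b, and of Mtrr and Cth overlapped. Mat2b thus moved from the second to the fourth place, below Ahcy in mean but not separated from it.

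**Figure D1:**
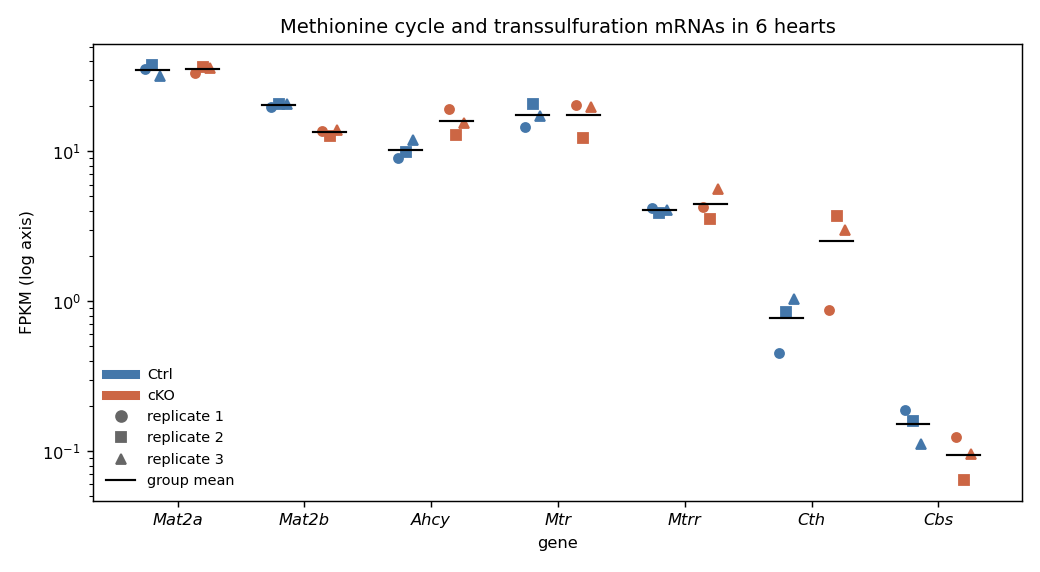
FPKM of the 7 genes in each heart (log axis; blue Ctrl, orange cKO; symbols mark the replicate, bars the group mean). Mat2b and Ahcy are the genes whose groups do not overlap, and Cth in cKO replicate 1 lies at 0.868 FPKM, within the Ctrl range.

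The first step, synthesis of S-adenosylmethionine, showed its subunits apart. Mat2b stood at 19.6, 20.6 and 20.6 FPKM in the Ctrl hearts, against 13.6, 12.6 and 14.0 FPKM in the cKO hearts. All 3 cKO hearts lay below all 3 Ctrl hearts. The mean went from 20.3 ± 0.551 to 13.4 ± 0.711 FPKM (SD, n = 3 each), or 65.9% of Ctrl, a log2 fold change of -0.57 ± 0.07 (SE, limma adjusted p = 0.00235). Mat2a, in contrast, stood at 35.3, 37.8 and 31.6 FPKM in the Ctrl hearts, against 33.3, 36.4 and 36.2 FPKM in the cKO hearts. Its groups overlapped fully, with a log2 fold change of 0.02 and a 95% interval of -0.19 to 0.23 (limma adjusted p = 0.887). In bulk tissue, fewer cells of a type and less RNA per cell cannot be told apart. Of the 10 cardiomyocyte markers, 7 were lower in cKO (limma, same fit), against 17.0% of all genes tested. Their sums were 22941 to 28322 FPKM in Ctrl and 13388 to 20895 FPKM in cKO hearts. Their part in the Mat2b difference was not tested.

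The ratio of the subunits within a heart, Mat2a over Mat2b, does not depend on how that heart was scaled. It was 1.80, 1.83 and 1.54 in the Ctrl hearts and 2.45, 2.90 and 2.59 in the cKO hearts. The lowest cKO heart stood above the highest Ctrl heart, and the mean ratio went from 1.72 ± 0.161 to 2.65 ± 0.227 (SD, n = 3 each). The difference of the mean log2 ratios was 0.62, with a two-sided exact permutation p = 0.1, the smallest that 3 hearts against 3 allow (0.267 after Benjamini-Hochberg adjustment over 4 ratios). It was the one ratio of the 4 computed whose groups did not overlap. Mat1a, the liver form of the catalytic subunit, had at most 2 reads in any heart.

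**Figure D2:**
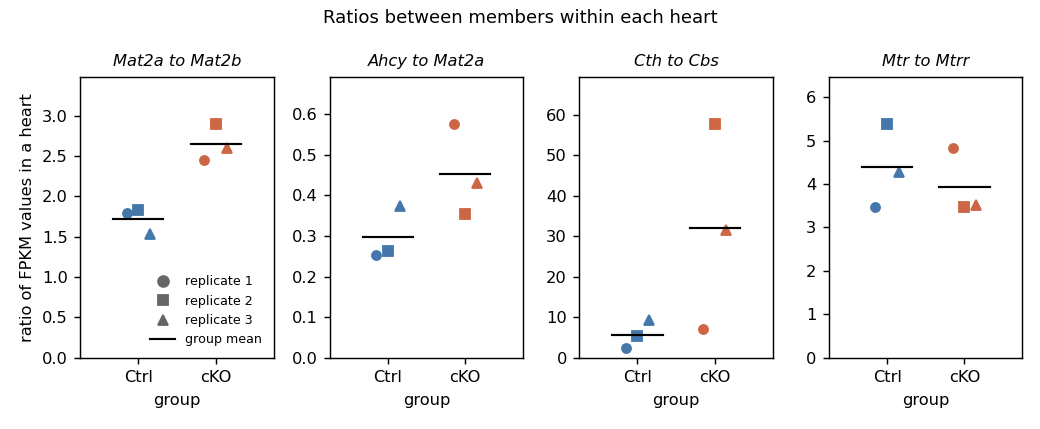
Ratios of FPKM values within each heart (each axis from 0; symbols mark the replicate, bars the group mean). Mat2a over Mat2b separates the groups at 1.54 to 1.83 against 2.45 to 2.90, and the other 3 ratios overlap between Ctrl and cKO.

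Ahcy, the enzyme after methyl transfer, stood at 8.96, 9.94 and 11.8 FPKM in the Ctrl hearts, against 19.2, 12.9 and 15.5 FPKM in the cKO hearts. Each cKO heart was above each Ctrl heart, but the gap between the nearest hearts was small beside the spread within cKO. The mean rose from 10.2 ± 1.47 to 15.9 ± 3.14 FPKM (SD, n = 3 each), a 1.55-fold difference, with a log2 fold change of 0.58 ± 0.16 (SE, limma adjusted p = 0.0290). The call did not hold without Ctrl replicate 1 (log2 fold change 0.49, limma adjusted p = 0.0886), Ctrl replicate 2 (0.56, 0.0847), cKO replicate 1 (0.44, 0.0649) or cKO replicate 3 (0.58, 0.0684), while the direction did. Set against Mat2a in the same heart, Ahcy was at 0.254, 0.263 and 0.374 in Ctrl and at 0.576, 0.354 and 0.429 in cKO. Those groups overlapped through Ctrl replicate 3 and cKO replicate 2 (two-sided exact permutation p = 0.2). The relative Ahcyl1, which is best known as a regulator of calcium release channels rather than as a hydrolase, was at 14.3 to 15.2 FPKM in Ctrl, against 19.9 to 22.2 FPKM in cKO hearts and also rose (log2 fold change 0.48, limma adjusted p = 0.00404). Its close relative Ahcyl2 was at 1.07 to 1.17 FPKM in Ctrl and 1.14 to 1.26 FPKM in cKO hearts (0.04, limma adjusted p = 0.694).

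Remethylation of homocysteine showed no group difference past the threshold. Methionine synthase, Mtr, stood at 14.6, 20.8 and 17.3 FPKM in the Ctrl hearts, against 20.4, 12.2 and 19.6 FPKM in the cKO hearts. The hearts of a group differed more from each other than the group means did, with cKO replicate 2 the lowest of the 6. The log2 fold change was -0.03, with a 95% interval of -0.53 to 0.46 (limma adjusted p = 0.916). Its reductase Mtrr was at 4.19, 3.87 and 4.05 FPKM in Ctrl, against 4.22, 3.52 and 5.58 FPKM in cKO hearts. Here too cKO replicate 2 was the lowest, cKO replicate 3 the highest, and the Ctrl hearts lay between them (log2 fold change 0.09, 95% interval -0.23 to 0.42, limma adjusted p = 0.627). Mtr over Mtrr averaged 4.38 ± 0.955 in Ctrl and 3.94 ± 0.774 in cKO hearts (SD, n = 3 each; two-sided exact permutation p = 0.6). The alternative route, betaine-dependent remethylation, was almost absent from these libraries: Bhmt had 3 reads in 1 Ctrl heart and none elsewhere, and Bhmt2 had none.

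Transsulfuration mRNAs were scarce in both groups. Cth stood at 0.451, 0.844 and 1.04 FPKM in Ctrl (24, 49 and 70 reads). In cKO the values were 0.868, 3.70 and 3.01 FPKM (41, 241 and 211 reads). The cKO replicates 2 and 3 stood above every Ctrl heart, and cKO replicate 1 lay inside the Ctrl range. The mean went from 0.777 ± 0.299 to 2.52 ± 1.48 FPKM (SD, n = 3 each), a 3.25-fold difference that did not pass the test. On the log2(FPKM + 1) scale, which understates the change of so low a gene, it was 0.90 ± 0.34 (SE), with a 95% interval before adjustment of 0.10 to 1.70 and a limma adjusted p = 0.0822. Without any other single heart it did not pass either (0.64 to 1.00, limma adjusted p from 0.12 to 0.20). Without cKO replicate 1, the lowest cKO heart, the same fit gave 1.30 (limma adjusted p = 0.00641). That heart also had the highest Ahcy of the 6, so Ahcy and Cth did not peak in the same cKO heart.

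Cbs, the first transsulfuration enzyme, stood at 0.188, 0.158 and 0.111 FPKM in the Ctrl hearts, against 0.124, 0.0641 and 0.0951 FPKM in the cKO hearts. These values rest on 5 to 12 reads a heart, 32 in all Ctrl and 20 in all cKO hearts, and the groups overlapped. The ratio of pooled reads, corrected for library size, was 0.612, with a 95% interval of 0.332 to 1.10 for counting error only. A difference in Cbs was not detectable at this depth. Cth over Cbs was 2.40, 5.34 and 9.32 in Ctrl hearts and 7.02, 57.7 and 31.6 in cKO hearts (two-sided exact permutation p = 0.2), with cKO replicate 1 again among the Ctrl hearts.

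Genes that overlap one of the enzymes on the chromosome had few reads. Particl, across the Mat2a start, had reads equal to 1.12% of those of Mat2a, Gm43314 to 2.04% of those of Cth, and Gm45609 to 0.0636% of those of Ahcy. Whether counting used the strand of a read, and how reads from near-identical copies were treated, was not stated.

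Genes with the most similar course were looked for among 10459 protein-coding genes, by the root mean square difference of log2(FPKM + 1), each centred on its mean, over the 6 hearts. Among the nearest to Mat2b were Map1lc3a, which encodes an autophagosome protein (0.0224), and Cars2, the mitochondrial cysteinyl-tRNA synthetase (0.0252). Cars2 was at 4.19 to 4.33 FPKM in Ctrl, against 2.37 to 2.81 FPKM in cKO hearts. Nearest to Ahcy were Manf, a secreted protein of the endoplasmic reticulum (0.0475), Cdr2 (0.0588) and the metalloprotease gene Adam9 (0.0666). Manf was at 8.16, 9.52 and 10.9 FPKM in Ctrl, against 16.9, 12.7 and 14.3 FPKM in cKO hearts, with cKO replicate 1 the highest and replicate 2 the lowest of the cKO hearts, as for Ahcy. The search picked genes by their values in these same hearts, so such shared features follow from it.

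The nearest genes to Cth, a search added after its values were seen, were less close: Ifrd1 (0.172), Rps27a (0.205) and Arhgef2 (0.240). Ifrd1 was at 5.42, 5.48 and 6.16 FPKM in Ctrl, against 6.17, 19.0 and 11.6 FPKM in cKO hearts. Chac1, which encodes an enzyme that degrades glutathione and is a known target of the amino acid response, was singled out after its values were seen. It was at 4.49, 3.85 and 10.7 FPKM in Ctrl, against 5.30, 27.1 and 29.0 FPKM in cKO hearts. As for Cth, cKO replicates 2 and 3 were high and replicate 1 lay in the Ctrl range, and the difference did not pass the test (log2 fold change 1.37, limma adjusted p = 0.141). Of 15 alternatives it passed in 1, without cKO replicate 1 (2.10). The 250 bases before the Chac1 start (RefSeq, GRCm38.p6, plus strand, chr2:119350992-119351241) are shown for comparison with the windows above, with TGATGNAA, read on the other strand as TTGCATCA, and CCAAT in capitals.
Chac1: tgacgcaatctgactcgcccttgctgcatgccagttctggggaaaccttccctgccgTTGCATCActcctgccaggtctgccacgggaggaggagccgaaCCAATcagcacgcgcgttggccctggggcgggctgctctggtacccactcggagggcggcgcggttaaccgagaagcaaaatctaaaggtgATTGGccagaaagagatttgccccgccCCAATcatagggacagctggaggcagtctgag
The TGATGNAA letters lay at -193 to -186 relative to its start. Of the other pathway genes with a window, Sqor (-143 to -136), which fell, and Got1 (-102 to -95), which did not pass the test, also held them. They were in 3.45% of all windows, and Cth had no window to set beside these. Any bearing on Cth or Chac1 was not tested.

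**Figure D3:**
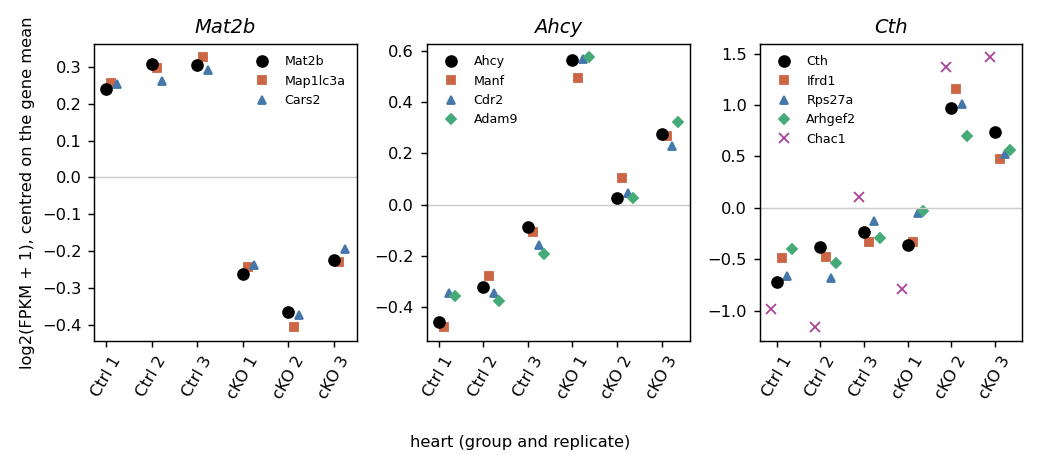
Log2(FPKM + 1) of Mat2b, Ahcy and Cth in each heart, centred on the mean of each gene (black circles), with the near genes named in the text and, beside Cth, Chac1. Mat2b is even within each group, Ahcy is highest in cKO replicate 1, and Cth is high in cKO replicates 2 and 3 only.

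Around the 7 enzymes, 64 genes of 6 connected groups were read from the same fit. Of 60 that passed the filter, 9 rose and 16 fell, against 16.3% higher and 17.0% lower among all genes tested, and 35 did not pass the test, with a median log2 fold change of -0.02, beside the same -0.02 over all genes tested. Of the other methionine cycle genes, 1 of 6 tested rose (Ahcyl1) and 1 fell, while voom on recovered reads called 3 higher and 1 lower, and 2 were higher without cKO replicate 1. Over all genes tested, voom called 2351 higher and 2150 lower, and 1602 were higher without cKO replicate 1. The methionine cycle gene that fell was Slc25a26, the carrier that brings S-adenosylmethionine into mitochondria, at 6.45 to 7.16 FPKM in Ctrl and 3.85 to 4.69 FPKM in cKO hearts (log2 fold change -0.60, limma adjusted p = 0.00360). Its locus overlaps that of Lrig1, which also had reads, so part of its count is uncertain. Mettl16, the methyltransferase that acts on the Mat2a transcript, was at 1.65 to 1.69 FPKM in Ctrl and 1.96 to 2.12 FPKM in cKO hearts, without passing the test (0.18, limma adjusted p = 0.0847).

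Among 8 cobalamin genes, 3 fell and none rose (limma), against 17.0% lower and 16.3% higher among all genes tested. At an unadjusted p under 0.05, 1 was higher, and voom on recovered reads also called 0 higher. Mmab, which makes the adenosyl form of cobalamin used by mitochondrial methylmalonyl-CoA mutase, was at 58.2% of its Ctrl level (log2 fold change -0.71, limma adjusted p = 0.00393). Mmaa, which delivers that form to the mutase, was at 77.1% (-0.32, 0.0252), and Tcn2, which carries cobalamin in plasma, at 72.0% (-0.46, 0.00638). Mmachc and Mmadhc, which process cobalamin on its way to methionine synthase, were at 20.6 to 24.8 and 47.3 to 58.0 FPKM in Ctrl hearts, against 20.9 to 23.2 and 58.2 to 61.9 FPKM in cKO hearts, without a call. The Mmaa call was lost without any one Ctrl heart or without cKO replicate 1 (limma adjusted p from 0.0542 to 0.0861).

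Of 10 methyltransferases that use S-adenosylmethionine, most of them on small molecules, 1 rose and 3 fell (16.3% and 17.0% of all genes tested). Hnmt, which methylates histamine, was at 5.46, 5.76 and 4.84 FPKM in Ctrl, against 0.668, 1.28 and 1.15 FPKM in cKO hearts, or 19.3% of Ctrl (log2 fold change -1.65, limma adjusted p = 0.000728). As3mt, the arsenite methyltransferase, fell to 53.8% (-0.86, 0.00254), and Gnmt, the glycine methyltransferase best known from liver, fell to 58.2% at only 2.80 FPKM in Ctrl hearts (-0.52, 0.0372). Pemt, which methylates phosphatidylethanolamine, rose from 0.456 ± 0.0713 to 1.59 ± 0.224 FPKM (SD, n = 3 each; 0.83, limma adjusted p = 0.00184). Icmt and Pcmt1, which methylate the ends and damaged residues of proteins, had log2 fold changes of -0.07 and 0.02 and no call. The Gnmt call was lost without Ctrl replicate 2 or 3 or any one cKO heart (limma adjusted p from 0.0555 to 0.115).

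Polyamine synthesis, which consumes decarboxylated S-adenosylmethionine, and the salvage of methionine from its by-product held 5 genes that rose and 2 that fell among 16, beside the 16.3% and 17.0% of all genes tested. Odc1, the ornithine decarboxylase, was at 19.1, 22.8 and 15.8 FPKM in Ctrl, against 61.4, 53.5 and 48.0 FPKM in cKO hearts (log2 fold change 1.46, limma adjusted p = 0.00142). Srm, spermidine synthase, was at 10.3, 7.22 and 7.94 FPKM in Ctrl, against 23.3, 23.0 and 22.7 FPKM in cKO hearts (1.35, limma adjusted p = 0.00101). Both were far apart between the groups. Azin1, which shields ornithine decarboxylase from its antizyme, rose to 169% (0.69, 0.00504), and the salvage genes Mtap (0.62, limma adjusted p = 0.00154) and Mri1 (0.32, 0.0435) rose as well. Adi1, a later salvage enzyme, fell to 59.2% (-0.70, limma adjusted p = 0.00688), and Sms, spermine synthase, fell by 0.34 on the log2 scale (limma adjusted p = 0.0239). Amd1, which makes decarboxylated S-adenosylmethionine and has a near-identical copy in Amd2, was at 35.8 to 40.8 FPKM in Ctrl, against 31.0, 18.0 and 30.5 FPKM in cKO hearts, without a call (-0.53, limma adjusted p = 0.0853). The Sms call was lost without any one Ctrl heart (limma adjusted p from 0.0553 to 0.0773), and that of Mri1 without any one Ctrl heart or cKO replicate 1 or 2 (from 0.0773 to 0.126; it held in 7 of 15 alternatives).

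Downstream of cysteine, the glutathione genes split, with 2 of 10 higher and 2 lower (16.3% and 17.0% of all genes tested). Gss, glutathione synthetase, was at 2.23, 2.62 and 2.22 FPKM in Ctrl, against 7.93, 4.93 and 6.61 FPKM in cKO hearts (log2 fold change 1.14, limma adjusted p = 0.00279). Gsr, glutathione reductase, rose to 153% of Ctrl (0.56, 0.0136), while Oplah, which recycles oxoproline, fell to 64.3% (-0.58, 0.00684) and Ggt5, a gamma-glutamyltransferase, to 59.3% (-0.51, 0.0496). Gss and Oplah overlap other genes with reads (Acss2 and Gssos2, and Exosc4 and Smpd5), so part of their counts is uncertain. Among other named genes, the same limit holds for Gsr, Ggt5, Gnmt, Odc1, Azin1, Mtap, Adi1, Manf, Cars2 and Ifrd1. Gclc and Gclm, the subunits of the rate-limiting ligase, had log2 fold changes of 0.30 and 0.42 and no call. The Ggt5 call was lost without any one Ctrl heart or without cKO replicate 1 (limma adjusted p from 0.0834 to 0.128), and held in 6 of 15 alternatives.

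Cysteine breakdown and sulfide oxidation held 5 lower genes and no higher one among 10 tested (limma), against 17.0% lower and 16.3% higher among all genes tested. At an unadjusted p under 0.05, 0 were higher in this fit, 2 with voom on recovered reads and 1 without Ctrl replicate 1 and cKO replicate 3. Voom called 4 lower and 0 higher after adjustment, beside 2150 lower and 2351 higher over all genes tested. Mpst, which makes sulfide from mercaptopyruvate, was at 15.1, 14.9 and 12.7 FPKM in Ctrl, against 6.62, 7.51 and 7.75 FPKM in cKO hearts (log2 fold change -0.87, limma adjusted p = 0.00164). The sulfide-oxidizing Sqor fell to 65.5% (-0.55, 0.00404), sulfite oxidase, Suox, to 59.8% (-0.67, 0.00670) and the rhodanese gene Tst by 0.25 on the log2 scale (limma adjusted p = 0.0468). Cdo1, the cysteine dioxygenase, was at 7.64, 3.55 and 6.75 FPKM in Ctrl, against 0.849, 0.952 and 3.90 FPKM in cKO hearts. It fell by 1.37 on the log2 scale (limma adjusted p = 0.0422) although cKO replicate 3 lay above Ctrl replicate 2. Its call was lost without Ctrl replicate 1 (limma adjusted p = 0.119), Ctrl replicate 3 (0.117), cKO replicate 1 (0.119) or cKO replicate 2 (0.103), and that of Tst without any one of the 6 hearts (from 0.0545 to 0.135; it held in 3 of 15 alternatives).

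**Figure D4:**
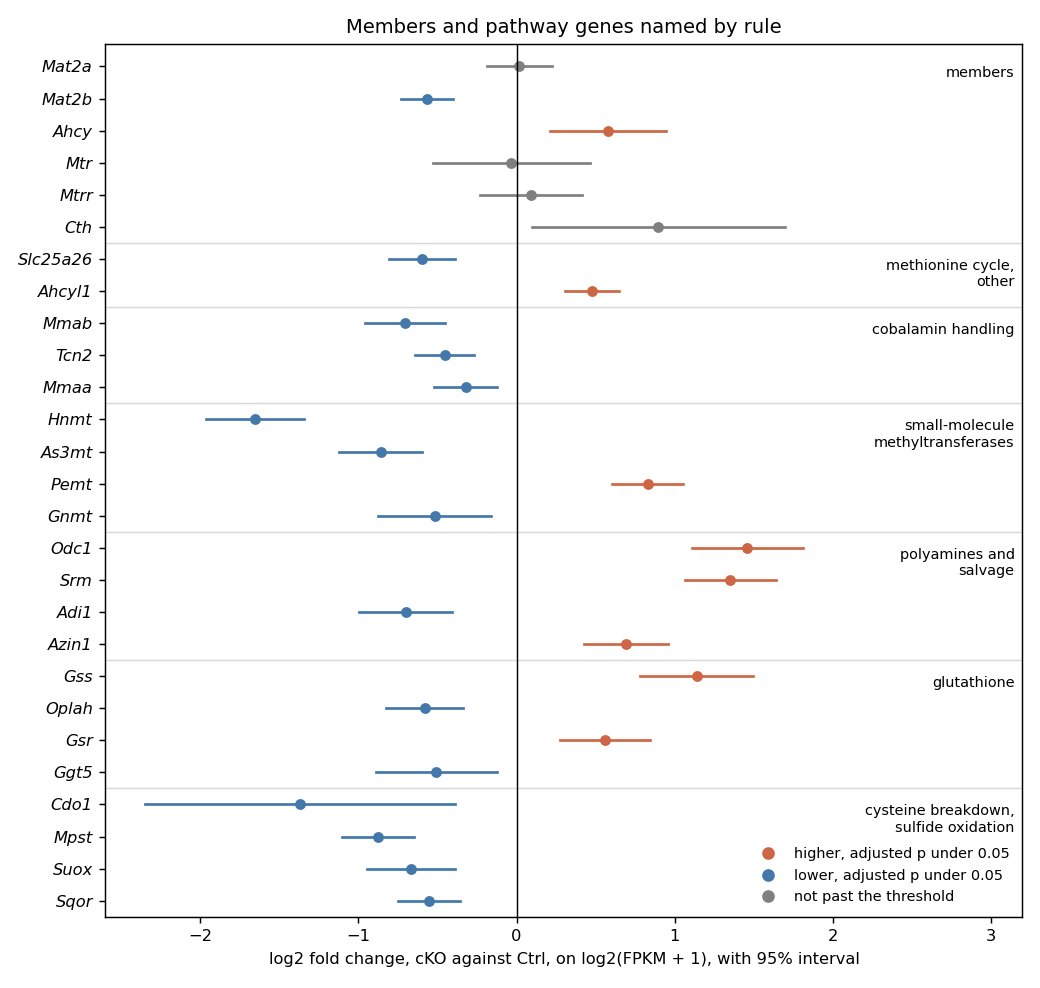
Log2 fold change of cKO against Ctrl on log2(FPKM + 1), with 95% intervals before adjustment, for the 6 tested enzymes and the pathway genes named by rule (orange higher, blue lower, grey not past the threshold). Mat2b lies at -0.57, Ahcy at 0.58 and Odc1 at 1.46, and the wide intervals are those of Cth and Cdo1.

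Besides the cardiomyocyte markers, 3 of 5 endothelial markers were lower in cKO hearts (limma, same fit; sums of 108.6 to 126.8 FPKM in Ctrl and 71.2 to 86.0 FPKM in cKO), and fibroblast markers were split, 1 of 6 higher and 1 lower. Of macrophage and leukocyte markers 1 of 4 tested was lower, and of smooth muscle markers 1 of 3 tested was higher. Among all genes tested, 17.0% were lower and 16.3% higher. The part of these cell types in the pathway groups above was not tested. Without Ctrl replicate 1 and cKO replicate 3, the hearts with high Myl7, the lower calls were 1 of 8 for cobalamin, 0 of 10 for glutathione (3 at an unadjusted p under 0.05) and 4 of 10 for cysteine breakdown, and the higher calls were 1 of 10 for glutathione. Polyamine synthesis and salvage then had 4 higher and 1 lower. Over all 12944 genes tested, that fit called 994 higher and 1024 lower, beside 2110 and 2205 with all 6 hearts. Without cKO replicate 2, the lower calls of the same groups were 3 of 8, 3 of 10 and 3 of 10, the higher calls 4 of 10 for glutathione, and polyamine synthesis and salvage had 4 higher and 3 lower. Over all genes tested, 1993 were then higher and 2006 lower. Without cKO replicate 1, the lower calls were 2 of 8, 1 of 10 and 3 of 10, the higher calls 3 of 10 for glutathione, and polyamine synthesis and salvage had 4 higher and 2 lower. Over all genes tested, 1602 were then higher and 1653 lower. Whether the changes in these counts exceed those over all genes was not tested.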

How the data were processed

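RNA from 3 Ctrl and 3 cKO hearts, grouped by their titles, was sequenced as paired ends. Per the labels and methods, the authors aligned reads with HISAT2 2.0.5, counted them per gene with featureCounts 1.5.0-p3 and computed the deposited FPKM from counts and gene length, the latter deposited beside it as an other gene-level value. The submitters' processing notes list mm9, but 53499 of 54409 shared identifiers had the positions of GENCODE M21 (GRCm38). The table's only per-sample values were FPKM. Values were tested as log2(FPKM + 1) with limma 3.58.1 (R 4.3.3), with an intensity trend, two-sided, on 12944 genes (minimum mean 0.5 FPKM), and the fit was tested on simulated data. Depth came from FPKM times length, whole for 100% of values within 0.1 of a read. Single ratios had exact permutation tests. Intervals on reads cover counting error only. The methods call control and knockout mice littermates, but no source used here ties a sample to a litter, so p-values measure the spread between these hearts. All 7 enzymes were named, and of each pathway list up to 4 called genes with the largest change and at least 1 FPKM in a group. The rule also names the 3 genes most similar to each called enzyme, of which not every one is reported here. Further genes were chosen after their values were seen. Members and lists were chosen with earlier results of these data known. Alternatives were other pseudocounts, filters, scalings, voom on recovered reads, a replicate block and leaving out hearts.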

Additional observations from a re-analysis of the deposited data

How the results depend on the processing

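Mat2b kept its direction and call in all 15 alternatives with a test (log2 fold change -0.62 to -0.48, limma adjusted p at most 0.0268), and its ratio to Mat2a kept its direction in all 8. Ahcy kept its direction in all 16 (0.44 to 0.71) and passed the threshold in 9 of the 15 with a test. Besides the single hearts named above (0.44 to 0.71 over all 6), its call was lost without a filter on low values (0.58, limma adjusted p = 0.0731) and without Ctrl replicate 1 and cKO replicate 3 together (0.50, 0.167). The number of enzymes higher was thus 0 without a filter, 0 to 1 when hearts were left out and 2 with a replicate block. Leaving out hearts gave 0.61 to 1.30 for Cth, which was past the threshold only without cKO replicate 1 and with the block. As a log2 ratio of mean FPKM, with no test, Cth was at 1.70. Cbs, not tested, was at -0.38 with a pseudocount of 0.1, at -0.69 as a ratio of means and at -0.65 with voom on recovered reads and no filter (limma adjusted p = 0.448), the last chosen after seeing the data. Values near 0 changed sign. Leaving out hearts gave -0.049 to 0.076 for Mat2a, -0.25 to 0.19 for Mtr, -0.052 to 0.22 for Mtrr and -0.31 to 0.011 for the log2 Mtr to Mtrr ratio, and leaving mtDNA-encoded genes out of the scaling gave 0.051 for Mtr. The causes were not tested.

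Over all genes, leaving out hearts gave 994 to 1993 higher and 1024 to 2006 lower genes, the lowest counts without Ctrl replicate 1 and cKO replicate 3, where fewer hearts were fitted. Leaving mtDNA-encoded genes out of the scaling gave 2649 higher and 1621 lower genes, beside 2110 and 2205 as deposited. A replicate block left 1874 higher and 1982 lower genes, and under it Cth passed (0.90, limma adjusted p = 0.0274). The numbers did not pair the hearts: same-numbered hearts had correlations of -0.06, 0.18 and -0.01 of their deviations, and only replicate 2 correlated best with its own number. Of 15 alternatives, the call held in 10 for Sms, 9 for Cdo1, 8 for Gnmt and for Mmaa, 7 for Mri1, 6 for Ggt5 and 3 for Tst. Beside left-out hearts, it was lost without a filter for all of these but Sms, with mtDNA-encoded genes out of the scaling for Sms, Cdo1, Mmaa, Ggt5 and Tst, with median-of-ratios scaling for Ggt5 and Tst, with a pseudocount of 0.1 for Ggt5, with voom for Gnmt and Tst, and with the block for Mri1 (limma adjusted p = 0.0507) and Tst (0.0695). The calls of Gsr, Oplah and Tcn2 were each lost in 1 of 15 alternatives, without Ctrl replicate 1 and cKO replicate 3 (limma adjusted p at most 0.0631). Depth limited Cbs, at 5 to 12 reads a heart, and 3 hearts a group limited the exact tests to p = 0.1 at best.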
